A study of Mus musculus with 20 samples.

Results

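The comparison is of kidney RNA from 3 ramipril-treated mice (ACEi) and 6 vehicle-treated mice (Veh), all Col4a3-/-, chosen by their group labels out of 20 sequenced mice. All genes of the estimated count table were used, of which 17622 passed the count filter and were tested. The Col4a3-/- mice were males of an F1 cross of 129SJ (129/SvJ in the study's methods) and C57Bl/6J mice that lack the α3 chain of type IV collagen in every cell from birth, a mouse model of Alport syndrome. From 5 weeks of age the ACEi mice drank ramipril at 11 mg/L, the Veh mice had weekly subcutaneous PBS as, per the study's methods, did the ACEi mice, and kidneys were taken at 15 weeks. This dose is that of the labels and methods, whereas a deposited library table states a dose per body weight, and the sources were not reconciled. For reference, 5 untreated wild-type mice (WT) of the same cross and 6 Col4a3-/- mice given the miR-21 inhibitor lademirsen (Anti-miR-21) were in the same fit. Mice carry the names of their libraries, namely A11, A13 and A23 for ACEi and A1, A4, A9, A16, A19 and A20 for Veh. Estimated counts on genes summed to 28649279 to 29159042 per ACEi mouse and to 28474301 to 29253452 per Veh mouse, so depth did not separate the groups. Values below are counts relative to library size (CPM, the usual unit of normalised read counts), scaled between libraries with TMM, and compare a gene between mice, not with other genes, since they are not divided by gene length.

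Renin, released by the juxtaglomerular cells of the kidney, cuts angiotensinogen to angiotensin I, which angiotensin-converting enzyme (ACE) turns into angiotensin II. Angiotensin II acts on the AT1 receptor to constrict vessels, raise aldosterone and restrain renin release, and ramipril is a prodrug whose product blocks ACE. In Alport syndrome the filter of the glomerulus fails, and protein leak, loss of tubule function, inflammation and scarring of the kidney follow.

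Of the 17622 genes, 7074 differed between ACEi and Veh by edgeR's quasi-likelihood test at an adjusted p under 0.05 (40.1%). They were 3704 genes higher in ACEi (21%) and 3370 lower (19.1%), and 873 and 804 of them differed by a log2 fold change of at least 1. The CPM of the 3 ACEi mice did not overlap those of the 6 Veh mice for 38.6% of the genes, with ACEi above in 19.8% and below in 18.8%. Between Veh and WT, 73% of the genes differed, and between ACEi and WT 47.7%. A share of a gene list is read below against these backgrounds.

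**Figure D1:**
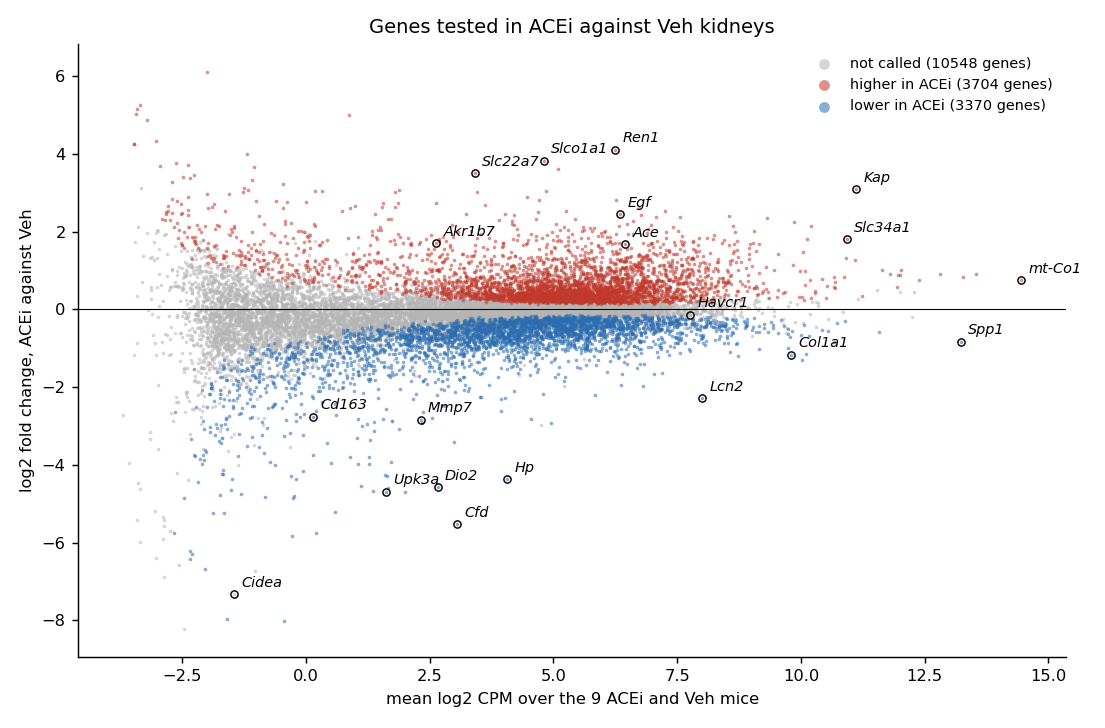
Log2 fold change of ACEi against Veh (y axis) against the mean log2 CPM of the 9 mice (x axis) for each gene tested, with genes higher in ACEi in red, lower in blue and not called in grey. Ren1 stands at 4.11 and Lcn2 at −2.27.

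The balance of higher and lower genes depended on the scaling between libraries. With TMM 52.4% of the called genes were higher in ACEi, with upper quartile scaling 41.5% (3063 higher and 4317 lower), and with library totals alone 20.5% (1907 higher and 7389 lower), where the median over all genes moved from −0.05 to −0.32. Library totals alone called 52.8% of the genes, and limma on log2(FPKM + 1), the deposited values per length and depth, 57.4% (1766 higher and 7445 lower). The share of counts on mitochondrially encoded genes was 9.49% to 10.5% in ACEi, 5.95% to 8.14% in Veh and 12.1% to 13.9% in WT, and did not overlap between these groups. Fold changes below are therefore relative to the bulk of genes. Within flow cell A (1 ACEi and 4 Veh mice) 16.6% of the genes were called, and within flow cell B (2 and 2) 7.35%. The lone ACEi mouse of flow cell A, A23, was assumed to vary like the mice of the other groups, so every value within flow cell A rests on 1 ACEi mouse. The Veh mice A1, A4 and A9 carried markers of fat cells, described further down, and without these 3 mice 4606 genes differed (26.6%). That setting also has fewer Veh mice, and why a given call was lost there was not tested.

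Col4a3 itself (chromosome 1) was at 56.2, 42.8 and 46.4 CPM in the ACEi mice and at 27.9 to 46.3 CPM (median 38.2) in the Veh mice, against 194 to 238 CPM in WT. All 9 knockout mice lay below every WT mouse, and the ACEi and Veh mice overlapped (log2 fold change 0.36, adjusted p = 0.075), with a call gained without A4, A16 or A20 alone. The tissue was checked by its markers. All 10 markers of the convoluted and all 6 of the straight proximal tubule and all 12 of podocytes were detected in the kidneys, while those of the pancreas were all under the count filter.

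Renin rose most among the 2976 protein-coding genes that were called higher without overlap at a mean log2 CPM of 1 or more. Ren1 (ENSMUSG00000070645, GRCm38 chr1:133350510-133360325, plus strand) was at 488, 605 and 453 CPM in the ACEi mice and at 23.8 to 37.7 CPM (median 29.3) in the Veh mice. No Veh mouse came near an ACEi mouse, and the WT mice, at 41.7 to 98.2 CPM, also lay below all 3. The log2 fold change was 4.11 (standard error, SE, 0.19, adjusted p = 6.1e-11) against Veh and 2.79 against WT, so ACEi kidneys carried 17.3 times the mean Ren1 of Veh kidneys, which were themselves 1.33 below WT on the log2 scale. Mice of 129 strains, such as the 129SJ parent, carry a second, near-identical renin gene, Ren2, that the C57BL/6J reference lacks, so its reads may be counted as Ren1 in every group of this cross. The stretch before RefSeq's start of Ren1 (GRCm38.p6, chr1:133350620-133350670, plus strand) is shown because Ren1 led the response, and its capitals mark the TATA box TATAAA, which begins 29 bases before the start.
Ren1: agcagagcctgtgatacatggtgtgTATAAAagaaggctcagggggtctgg

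Akr1b7, an aldo-keto reductase that renin-producing cells express, was the other marker of the juxtaglomerular cell. It was at 10.8, 15.7 and 14.8 CPM in ACEi and at 2.91 to 6.18 CPM (median 4.04) in Veh, without overlap, and at 3.27 to 4.72 CPM in WT. Its log2 fold change was 1.71 (SE 0.20, adjusted p = 1.3e-05) against Veh, and Veh and WT differed by 0.15. An annotated gene, Gm13857, overlaps 27.2% of its exons. Of the 3 markers of the macula densa, the tubule cells that signal to the juxtaglomerular cells, none was called, but 1 was lower with library totals alone and both of the 2 tested on log2(FPKM + 1). The prostaglandin enzyme Ptgs2 was at 1.05, 1.68 and 0.818 CPM in ACEi and at a median of 1.69 CPM in Veh, the prostaglandin synthase Ptges at 27.3 and 32.2 CPM on average, and the nitric oxide synthase Nos1 at 0.862 and 0.573 CPM (adjusted p = 0.23, 0.28 and 0.083). Ptgs2 was called lower with FPKM (lowest adjusted p = 0.0084), and Ptges with FPKM and with library totals alone (lowest adjusted p = 0.024).

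Of the 11 genes of the renin-angiotensin system tested, 8 were higher in ACEi and none lower, with a median log2 fold change of 0.90 against −0.05 for all genes, with library totals alone 7 were higher (median 0.63), and on log2(FPKM + 1) 4 of 8 were higher and 1 lower (0.53). Ace, the target of ramipril (GRCm38 chr11:105967945-105989964), was at 200, 205.3 and 185 CPM in ACEi and at 42.5 to 97.9 CPM (median 51.6) in Veh. The groups did not overlap, the log2 fold change was 1.68 (SE 0.22, adjusted p = 1.9e-05), and ACEi stayed 0.81 below WT. Agtr1a, the AT1 receptor, was at 49.1, 62.9 and 51.8 CPM in ACEi and at 26.3 to 39.6 CPM (median 31.2) in Veh, a log2 fold change of 0.78 (adjusted p = 1.7e-05), against 53.1 to 61.6 CPM in WT. Aminopeptidases that break angiotensins down rose as well. Enpep, which removes the first residue of angiotensin II, had a log2 fold change of 1.0, and Anpep, the aminopeptidase that takes the next step, 1.22. Mas1, the receptor of a vasodilator angiotensin peptide, had 1.22 (adjusted p = 0.021), with overlapping groups and no call without A1, A4 and A9, nor without A13 or A23 alone. Atp6ap2, the prorenin receptor, rose by 0.31 without overlap, and was not called with library totals alone.

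Angiotensinogen, Agt, was at 150, 133 and 112 CPM in ACEi and at 100 to 126 CPM (median 110) in Veh, with a log2 fold change of 0.25 (adjusted p = 0.085). It was called higher without A16 or without A23 alone (lowest adjusted p = 0.029). Mme (neprilysin) and Lnpep, which also cut angiotensins, had log2 fold changes of 0.01 and 0.00 (adjusted p = 0.94 and 0.99), and Lnpep was called lower with FPKM.

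In the kallikrein-kinin system, whose product bradykinin ACE degrades, 2 of 6 genes were higher and none lower (33.3% called, against 40.1% of all genes, median 0.16, and −0.12 with library totals alone), and on log2(FPKM + 1) 1 of 5 was higher. Klk1, the tissue kallikrein that frees kinins, was at 760, 798 and 806 CPM in ACEi and at 221.4 to 481 CPM (median 324) in Veh, without overlap (log2 fold change 1.22, adjusted p = 6.8e-05). Xpnpep2, an aminopeptidase that degrades bradykinin, was at 6.92, 8.91 and 6.54 CPM in ACEi and at 1.79 to 4.71 CPM in Veh (1.39, adjusted p = 0.002). The kinin precursors Kng1 and Kng2, the receptor Bdkrb2 and the carboxypeptidase Cpn1 were not called, with log2 fold changes of −0.20, 0.23, −0.32 and 0.08, and Kng2 was called higher without A9, A16 or A20 alone. Klk1 belongs to a family of near-identical genes, between which reads may be split.

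**Figure D2:**
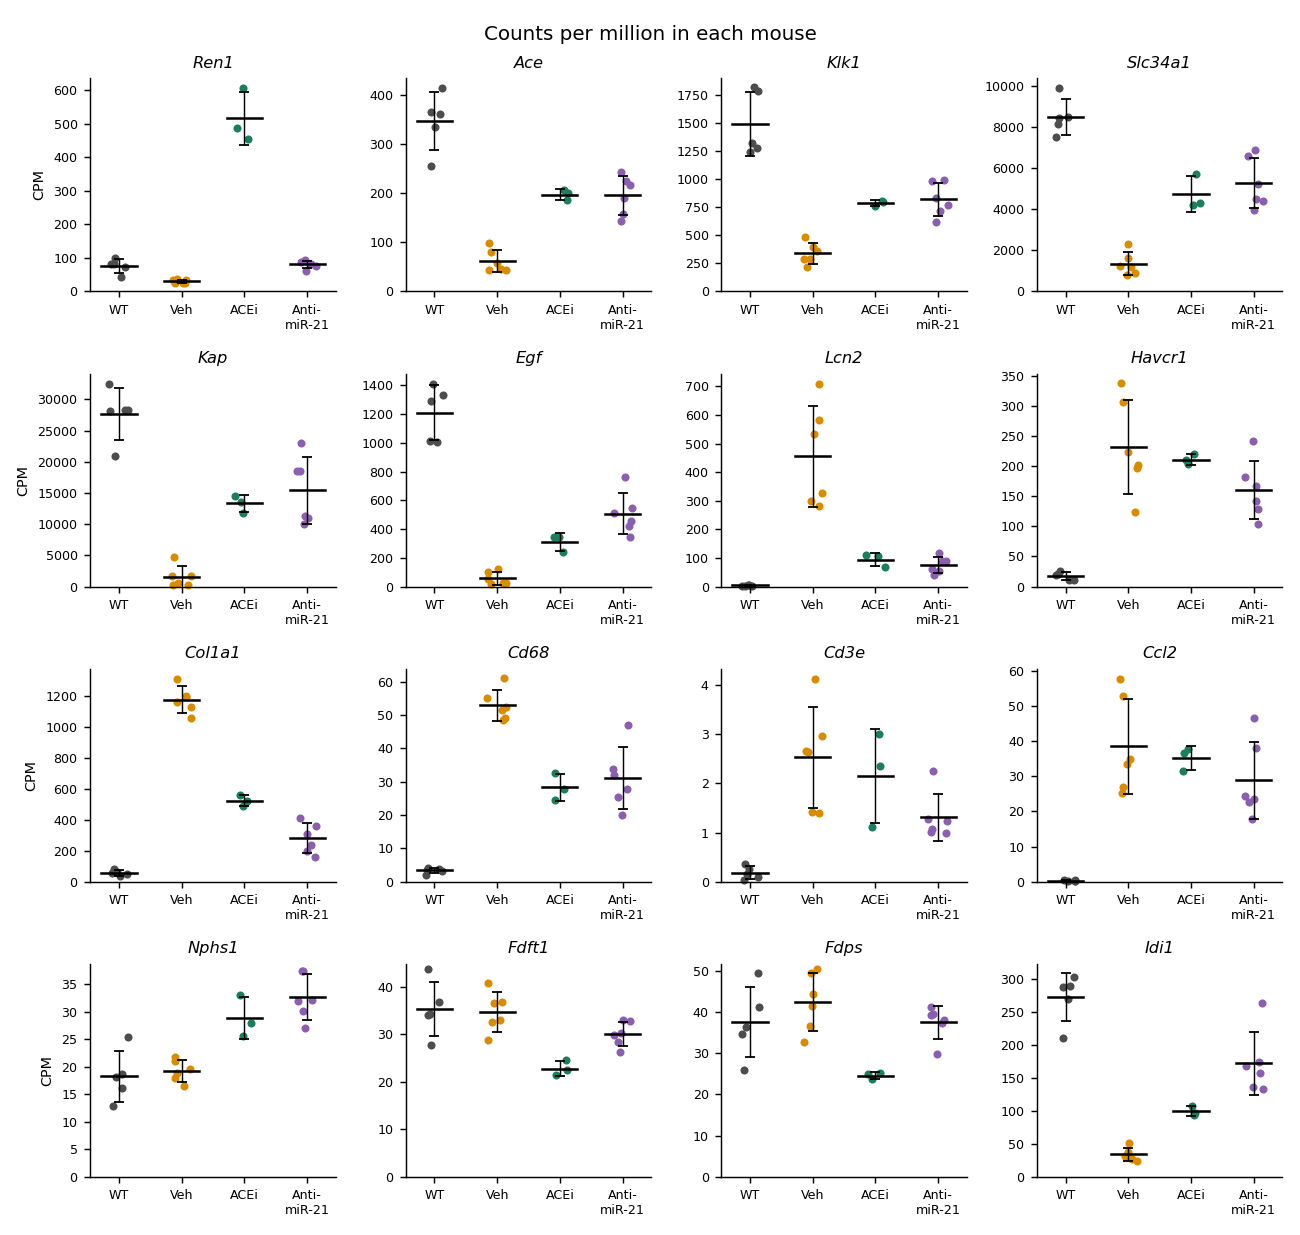
CPM of 16 genes in every mouse (points) of WT, Veh, ACEi and Anti-miR-21, with the mean (bar) and SD (whiskers) of each group and the y axis from 0. Ren1 is above all other mice in the 3 ACEi mice, Slc34a1 and Kap lie between Veh and WT, Havcr1, Cd3e and Ccl2 overlap between ACEi and Veh, and Fdft1 and Fdps are lower in ACEi than in Veh.

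The proximal tubule, which reabsorbs most of the filtered salt, sugar, amino acids and protein, rose in all of its markers. All 10 markers of its convoluted part were higher in ACEi (median log2 fold change 1.41) and all 6 of its straight part (2.57), and for none did the groups overlap. The summed CPM of the convoluted markers was 8236, 10690 and 8231 in the ACEi mice and 1747 to 4665 (median 2560) in the Veh mice, 3.23 times higher on average, and 13580 to 17770 in WT. Among Veh mice A16 was the highest. In whole kidney, more cells of a type and more RNA per cell cannot be told apart. Slc34a1, the phosphate transporter that gave 50.8% of that sum, was at 4308, 5740 and 4199 CPM in ACEi and at 788 to 2330 CPM (median 1224) in Veh, a log2 fold change of 1.81 (SE 0.25, adjusted p = 2.3e-05). Slc22a6 and Slc22a8, the organic anion transporters of the blood side, rose by 2.16 and 1.88, and Slc6a19, the neutral amino acid transporter of the brush border, by 1.77. Cyp7b1, a steroid hydroxylase of the straight part, rose by 2.32, from 11.0 to 84 CPM in Veh to 146 to 162 CPM in ACEi. All of these remained below WT on average, by a median of 0.68 for the convoluted and 1.44 for the straight part.

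**Figure D3:**
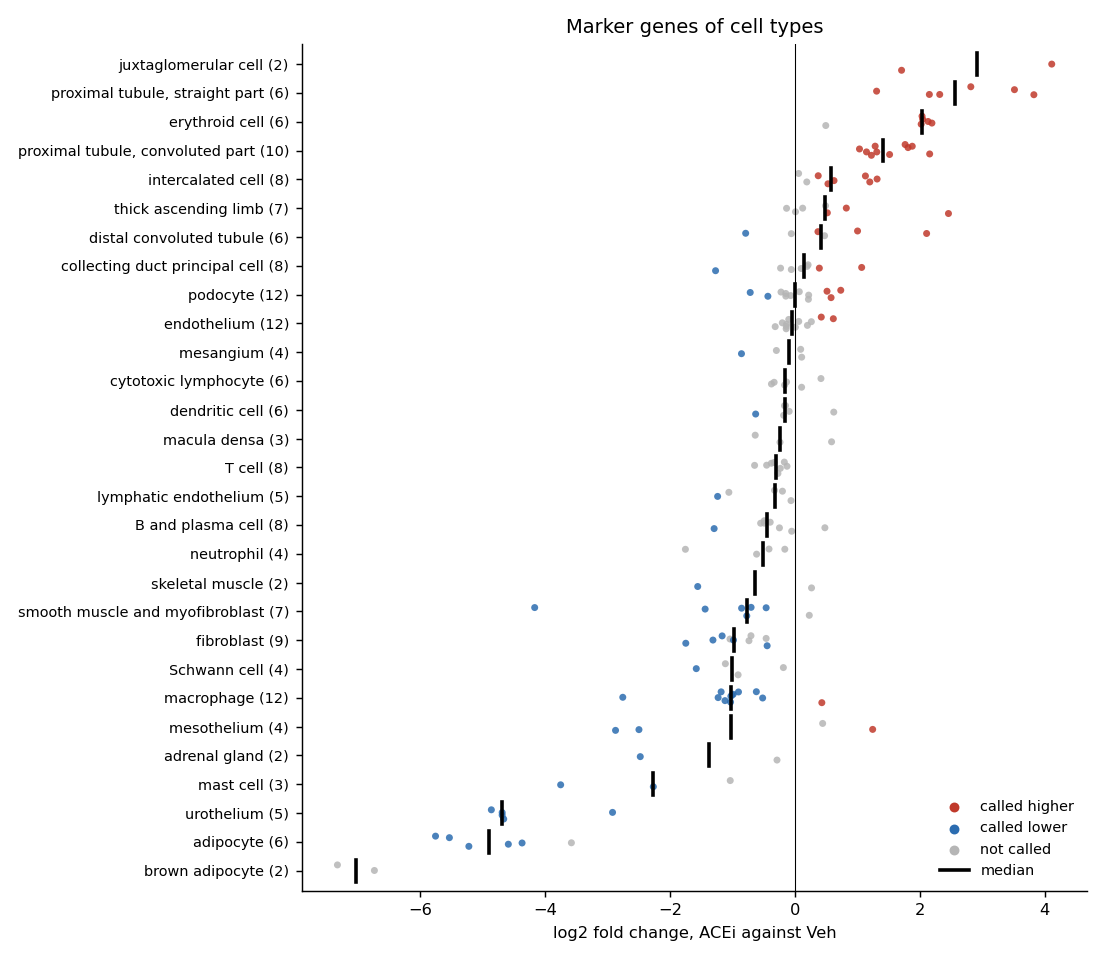
Log2 fold change of ACEi against Veh (x axis) of each tested marker gene (points) of the cell types (rows, with the number of markers tested), coloured red if called higher, blue if called lower and grey if not called, with the median of each list as a bar. The medians run from 2.91 for the juxtaglomerular cell to −7.03 for the brown adipocyte, which is carried by Veh mice A1 and A4.

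After Ren1, the largest rises among those 2976 genes were led by genes of the proximal tubule. Slco1a1, an organic anion transporter (GRCm38 chr6:141907282-141946962), was at 172, 188 and 200 CPM in ACEi and at 5.47 to 35.1 CPM (median 9.32) in Veh (log2 fold change 3.83, SE 0.44, adjusted p = 1.2e-05). Dnase1, a secreted nuclease, was at 122, 277 and 222 CPM in ACEi and at 6.08 to 33.2 CPM (median 13.2) in Veh (3.62, adjusted p = 1.4e-05). Both groups of values lay below WT, where Dnase1 was at 812 to 1489 CPM. Next came Slc22a7, another anion transporter (3.52), Kap, the kidney androgen-regulated protein (3.10), the cytochrome Cyp2d12 (3.08), the steroid reductase Akr1c14 (3.05), the protease inhibitor Pzp (3.02) and Hpd, an enzyme of tyrosine breakdown (3.02). Slc22a28, Slc7a13, Slc22a30, the complement component C8a, the steroid reductase Akr1c18 and the lysophospholipid transporter Mfsd2a followed at 2.73 to 2.89. Cyp2d12, Akr1c14, Akr1c18, Slc22a28 and Slc22a30 have close paralogues, between which reads may be split.

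Several of these genes are known to need androgen in the proximal tubule of the male mouse. Of 7 such genes, 6 were higher in ACEi and none lower (median 2.62). Kap was at 11850, 13500 and 14580 CPM in ACEi and at 232 to 4769 CPM (median 1154) in Veh, where A16 was again the highest, and at 20920 to 32500 CPM in WT. Cyp4a12a, a fatty acid hydroxylase, was at 332, 448 and 412 CPM in ACEi and at 31.4 to 150 CPM in Veh (2.62, adjusted p = 3.1e-05). The exception was the glucuronidase Gusb, with a log2 fold change of −0.02.

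Of 34 solute transporters of the proximal tubule 32 were higher and none lower (median 1.30), led by Slco1a1, Slc22a7, Slc22a6 and the lactate transporter Slc5a8 (2.09, adjusted p = 2.5e-05). Of the 8 genes of protein endocytosis, 6 were higher and 1 lower (median 0.71, with 2 lower and a median of 0.44 with library totals alone). Lrp2 (megalin), the receptor that recovers filtered protein, was at 780, 947 and 781 CPM in ACEi and at 180 to 460 CPM (median 284) in Veh (1.52, adjusted p = 2.9e-05). Its partners Cubn and Amn and its chaperone Lrpap1 rose by 1.15, 0.75 and 1.17. Ocrl, a phosphatase of the endosome, was lower by a log2 fold change of −0.22, without overlap, and was not called without A1, A4 and A9, nor without A1, A4, A9, A19, A20, A13 or A23 alone.

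Of 28 genes of fatty acid oxidation, the main fuel of this tubule, 27 were higher and none lower (median 0.84), as were all 17 of the citric acid cycle (0.79), all 33 of amino acid catabolism (1.27) and all 6 of gluconeogenesis and fructose use (1.68). In the same order 21, 15, 32 and 6 were higher with library totals alone (medians 0.58, 0.52, 1.02 and 1.43). Acadm, which oxidises medium-chain fatty acids, was at 741, 772 and 658 CPM in ACEi and at 125 to 378 CPM (median 182) in Veh (1.81, adjusted p = 2e-05). Pck1, a rate-setting enzyme of gluconeogenesis, was at 935, 1065 and 950 CPM in ACEi and at 169 to 460 CPM (median 305) in Veh (1.75, adjusted p = 4.6e-05). For neither gene did the groups overlap, and both stayed below WT. Ehhadh of the peroxisome rose by 1.72, pyruvate carboxylase Pcx by 1.77, glucose-6-phosphatase G6pc by 1.71, ketohexokinase Khk by 1.65, and the tryptophan enzymes Haao and Acmsd by 2.13 and 2.01.

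In the respiratory chain, of 83 nuclear genes of oxidative phosphorylation 74 were higher and none lower (median 0.56, with 56 higher, 2 lower and a median of 0.30 with library totals alone), for example Ndufs1 of complex I (1.03) and Sdha of complex II (0.89), and of 13 protein-coding genes of the mitochondrial genome 11 were higher (0.78, and 10 with library totals alone, 0.52). mt-Nd2, a complex I subunit, was at 5979, 7263 and 6960 CPM in ACEi and at 2578 to 4690 CPM (median 3182) in Veh (1.02, adjusted p = 0.00017). Within flow cell B, 2 of 82 nuclear and none of 13 mitochondrially encoded genes were called, with medians of 0.43 and 0.61. Of 78 genes of the mitochondrial ribosome 50 were higher and 1, Mrpl23, lower (median 0.32), but with library totals alone 18 were higher and 7 lower, on log2(FPKM + 1) 15 of 76 were higher and 6 lower, and both medians were 0.04. Mrpl23 was not called without A1, A4 and A9, nor without A23 alone.

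Glycolysis was split. Of 15 genes 6 were higher and 6 lower (median 0.14), with library totals alone 3 and 6 (median −0.13), and on log2(FPKM + 1) 2 and 8 of 14. The glucose entry steps were among the lower genes, with Hk2, the hexokinase of growing cells, at 3.38, 3.43 and 6.17 CPM in ACEi and 8.49 to 15.5 CPM (median 11.1) in Veh (−1.37, adjusted p = 0.0002) and the glucose transporter Slc2a1 at −0.57. Pgk1 and Tpi1, later steps that also serve gluconeogenesis, rose by 0.71 and 0.60.

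**Figure D4:**
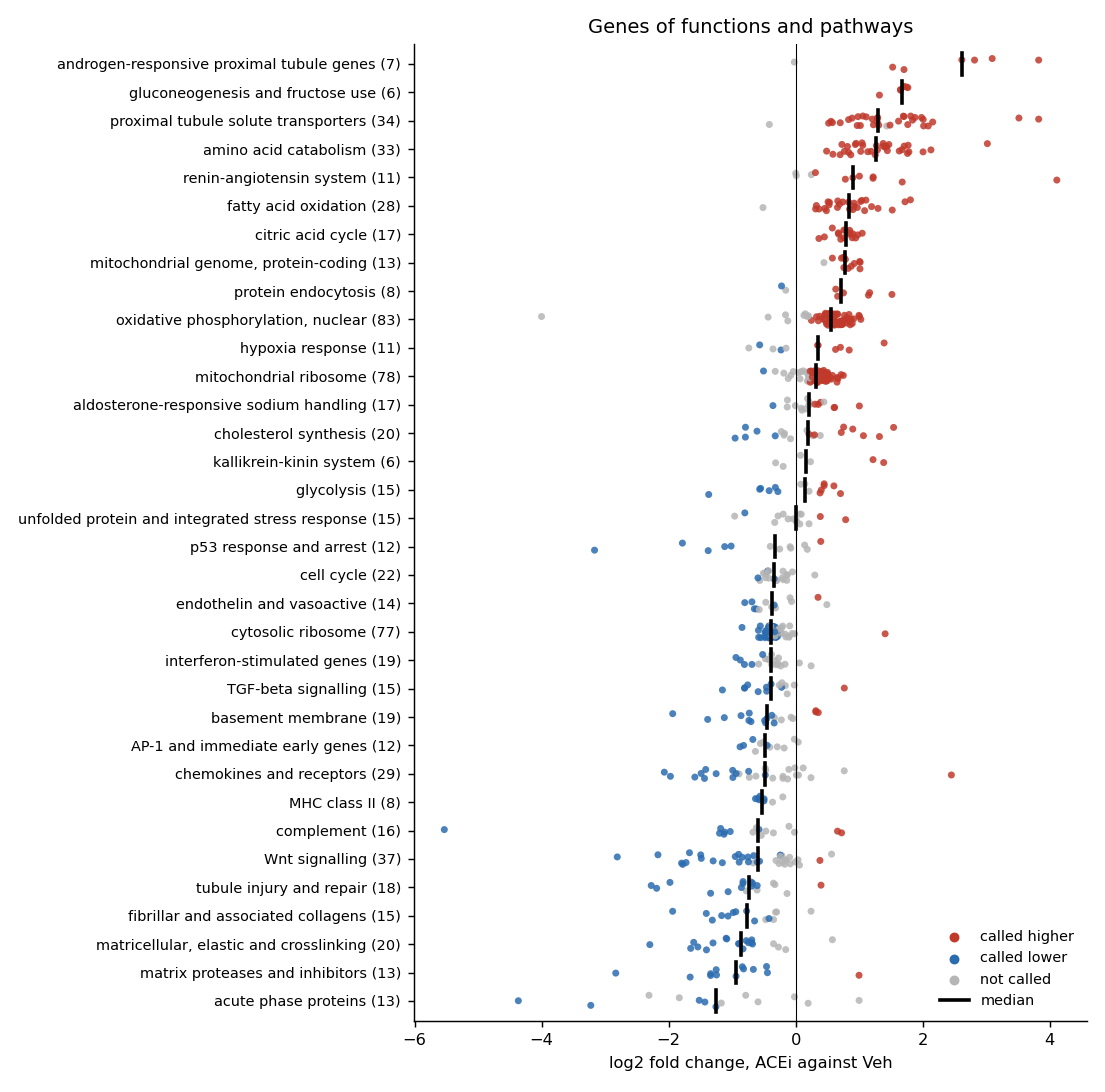
Log2 fold change of ACEi against Veh (x axis) of each tested gene (points) of the functional lists (rows, with the number of genes tested), coloured red if called higher, blue if called lower and grey if not called, with the median of each list as a bar. The medians run from 2.62 for androgen-responsive genes of the proximal tubule to −1.25 for acute phase proteins.

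Beyond the proximal tubule the lists had smaller medians, a difference that was not tested. In the thick ascending limb, which dilutes the urine, 3 of 7 markers were higher and none lower (42.9% called, against 40.1% of all genes, median 0.49), and 2 higher and 1 lower with library totals alone and on log2(FPKM + 1). Egf, the growth factor made there, was at 344, 346 and 238 CPM in ACEi and at 16.6 to 124 CPM (median 36.5) in Veh, without overlap (2.46, SE 0.44, adjusted p = 0.00022), and at 1003 to 1412 CPM in WT. Umod, which encodes uromodulin and gave 80.6% of the summed CPM of the list, was at 4478, 4055 and 3049 CPM in ACEi and at 1796 to 4203 CPM in Veh (0.49, adjusted p = 0.071), with a call gained without A16, A20 or A23 alone. Cldn10 and the potassium channel Kcnj1 had 0.82 and 0.52, and Kcnj1 was not called with library totals alone, without A1, A4 and A9, or without A11.

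In the distal convoluted tubule 3 of 6 markers were higher and 1 lower (median 0.42), while 2 were higher with RLE scaling, the upper quartile, library totals alone (median 0.15) and log2(FPKM + 1) (median 0.00). Slc12a3, the thiazide-sensitive salt transporter, was at 312, 343 and 294 CPM in ACEi and at 117 to 210 CPM (median 143) in Veh (1.0, adjusted p = 0.00016), and the calcium-binding protein Pvalb rose by 2.11. Trpm6, the magnesium channel, was lower (−0.79), at 5.98 to 8.65 CPM in ACEi and 10.2 to 15.1 CPM in Veh. Of the 8 markers of the intercalated cell, which secretes acid or base, 6 were higher (median 0.58), with library totals alone 5 (0.31) and on log2(FPKM + 1) 4 (0.29), such as the anion exchangers Slc26a4 (1.32) and Slc4a1 (1.13). Of the 8 markers of the principal cell of the collecting duct 2 were higher and 1 lower (37.5% called, against 40.1% of all genes, median 0.15, but −0.12 with library totals alone, −0.05 on log2(FPKM + 1) and −0.10 within flow cell B), and 1 higher and 1 lower with library totals alone and on log2(FPKM + 1). Of the water channels, Aqp3 had 1.07 without overlap, and Aqp2 was not called (0.20, adjusted p = 0.64). Aqp4 had −1.27 with overlapping groups, and was not called without A1, A4 and A9, without A1, A4, A13 or A23 alone, or with the 9 mice fitted alone. Among 17 genes of aldosterone-responsive sodium handling 6 were higher and 1, the kinase gene Stk39, lower (41.2% called, near the 40.1% of all genes, median 0.21), with upper quartile scaling 3 and 1, and with library totals alone (median −0.06) and on log2(FPKM + 1) 2 and 2. They included the sodium channel subunit Scnn1g (0.39) and the sodium pump subunit Atp1b1 (0.61), whereas the aldosterone receptor Nr3c2 and its target Sgk1 had 0.09 and 0.19 and were not called. Without A1, A4 and A9 the higher calls fell to 2 of 7, 1 of 6, 4 of 8, 1 of 8 and 2 of 17 in the lists of the thick ascending limb, distal convoluted tubule, intercalated cell, principal cell and sodium handling. In the same order the medians were then 0.24, 0.33, 0.46, 0.10 and 0.18. Pvalb, Slc4a1 and Scnn1g were among the calls lost. Slc4a1 was also not called without A11, Scnn1g without A23 or with library totals alone, and Stk39 without A13.

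Of 18 genes of tubule injury and repair 12 were lower and 1 higher (median −0.74), and 8 were lower and none higher without A1, A4 and A9. Library totals alone gave 14 lower, and on log2(FPKM + 1) 15 of 17. Lcn2 (GRCm38 chr2:32384633-32388252), the secreted injury marker NGAL, was at 107, 67.1 and 109 CPM in ACEi and at 283 to 710 CPM (median 431) in Veh, without overlap (−2.27, SE 0.38, adjusted p = 0.00013), and at 1.83 to 5.79 CPM in WT. The keratins Krt18 and Krt19 had −1.98 and −2.19, and Timp1, a protease inhibitor, −1.34. In WT Krt18 was at 15.1 to 52.2 CPM and Krt19 at 1.02 to 16.5 CPM. Which cells these keratins came from was not tested. Havcr1, which encodes the injury marker KIM-1, was at 210, 220 and 203.1 CPM in ACEi and at 124 to 338 CPM (median 213) in Veh, against 11.1 to 25.2 CPM in WT. Its groups overlapped fully and it was not called (−0.14, adjusted p = 0.74), nor was the adhesion molecule Vcam1 (−0.33, adjusted p = 0.25), nor Krt20, Sox4 and Sox9 (−0.35, −0.78 and −0.61). On log2(FPKM + 1) Vcam1, Krt20, Sox4 and Sox9 were called lower, and with library totals alone Vcam1 (−0.59, adjusted p = 0.045) and Sox9 were. Hmox1, which breaks down haem, was the gene that was higher (0.40), with overlapping groups, and was not called with library totals alone or without A13 or A23. Krt19 and Hmox1 were not called without A1, A4 and A9. Of 13 acute phase proteins 5 were lower (38.5% called, against 40.1% of all genes, median −1.25), among them Serpina3n (−1.52), the lipopolysaccharide-binding protein Lbp (−1.43) and Lrg1 (−1.25), and 3 were lower without A1, A4 and A9.

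Of 15 fibrillar and associated collagens 10 were lower and none higher (median −0.77), with library totals alone 12 were lower and on log2(FPKM + 1) 13. Col3a1 (GRCm38 chr1:45311538-45349706) was at 560, 588 and 560.1 CPM in ACEi and at 1102 to 1704 CPM (median 1448) in Veh (−1.31, SE 0.31, adjusted p = 0.0022), and Col1a1 at 488, 563 and 524 CPM in ACEi and at 1057 to 1315 CPM (median 1179) in Veh (−1.17, adjusted p = 0.0013). For both collagens every ACEi mouse lay under every Veh mouse and over every WT mouse, at 31.6 to 89.7 and 35.9 to 83.9 CPM. Col12a1, which coats the fibrils, had −1.94 and Col5a2 −1.41. Of 20 matricellular, elastic and crosslinking genes 16 were lower (median −0.86, and 18 with library totals alone), such as Mfap5 of the microfibrils (−2.30), tenascin C Tnc (−1.65), Fbln2 (−1.60) and periostin Postn (−1.54). All but 1 of 13 matrix proteases and inhibitors were lower (median −0.94, with 8 lower without A1, A4 and A9). Mmp7 was at 1.71, 0.859 and 1.64 CPM in ACEi and at 5.62 to 17.9 CPM (median 9.44) in Veh (−2.83, adjusted p = 0.00016), and Mmp9 and Mmp12 had −1.66 and −1.34. The exception was Timp3, a matrix-bound inhibitor, which rose by 1.0, from 673 to 1042 CPM in Veh to 1550 to 1733 CPM in ACEi, toward the 1982 to 2205 CPM of WT.

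Of 9 fibroblast markers 5 were lower and none higher (median −0.98), and 8 of the 9 had no overlap between the groups. All 9 were lower on log2(FPKM + 1), with library totals alone and with the upper quartile. Thy1 was at 15.7, 18.7 and 16.2 CPM in ACEi and at 45.1 to 77.5 CPM (median 54.1) in Veh (−1.75, adjusted p = 5.1e-05). Of 7 markers of smooth muscle and myofibroblasts 6 were lower (median −0.77), and 3 were without A1, A4 and A9. Acta2, the contractile actin of the myofibroblast, was at 85.4, 102 and 107 CPM in ACEi and at 142 to 226 CPM (median 168) in Veh (−0.85, adjusted p = 0.00055), and Tagln had −0.77. Cnn1 and Myh11, which are also genes of vessel and ureter muscle, had −1.44 and −0.70 and were not called without A1, A4 and A9, nor without A1, A4, A13 or A23 alone.

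Of 15 genes of TGF-β signalling, the main pathway that drives scarring, 9 were lower and 1 higher (median −0.39), and 13 were lower with library totals alone (−0.66) and on log2(FPKM + 1) (−0.65). The ligand Tgfb1 was at 54.7, 64.8 and 61.3 CPM in ACEi and at 92.8 to 122 CPM (median 102) in Veh (−0.80, adjusted p = 0.001), Tgfb2 had −1.15 and the target Tgfbi −0.81. Bmp7, a ligand known to oppose TGF-β in the kidney, was the higher gene (0.77, adjusted p = 4.1e-05), at 42.8 to 52.1 CPM in ACEi and 23.6 to 33.7 CPM in Veh. Of 37 genes of Wnt signalling 20 were lower and 1, the co-receptor Lrp6, higher (median −0.60), and 30 were lower with library totals alone and 29 of 36 on log2(FPKM + 1). The ligand Wnt4 was at 8.79, 4.51 and 6.92 CPM in ACEi and at 28.8 to 73.5 CPM (median 41.4) in Veh (−2.81, adjusted p = 0.0036), against 0.902 to 21.2 CPM in WT. Wnt7b and Wnt11 had −2.17 and −1.80. Wnt9b, a ligand of the collecting duct, had −1.78 with overlapping groups and was not called without A1, A4 and A9, nor without A13 or A23 alone. Lrp6 was not called with library totals alone.

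All 12 macrophage markers changed, 11 lower and 1, the clearance receptor Mertk, higher (median −1.02), and the list's summed CPM was 963, 902 and 1169 in ACEi and 1769 to 2204 in Veh, without overlap. Fcgr1, a receptor for antibody, was at 11.4, 11.6 and 10.9 CPM in ACEi and at 22.2 to 29.9 CPM (median 27.2) in Veh (−1.23, SE 0.19, adjusted p = 5.1e-05), and the complement genes of macrophages C1qa, C1qb and C1qc had −1.12, −1.03 and −1.18. In WT Fcgr1 was at 0.633 to 0.943 CPM, so that ACEi stayed 3.80 above WT on the log2 scale. Of 8 T cell markers none was called, but 1 was lower with library totals alone and 3 on log2(FPKM + 1), and the difference from the macrophage list was not tested. Their medians were −0.30 with all mice, 0.22 within flow cell A and −0.80 within flow cell B, and the summed CPM was 20.8, 33.0 and 31.2 in ACEi and 21.4 to 57.5 (median 35.1) in Veh, against 2.63 to 4.59 in WT. Cd3e, a chain of the T cell receptor, was at 1.11, 3.01 and 2.35 CPM in ACEi and at 1.4 to 4.13 CPM in Veh (−0.23, adjusted p = 0.67). None of 6 markers of cytotoxic lymphocytes was called (median −0.15, with 0.80 within flow cell A and −1.35 within flow cell B). Of 6 markers of dendritic cells 1 was lower (Itgax, −0.63, 16.7% called), with a median of −0.16 over all mice, 0.50 within flow cell A and −0.70 within flow cell B. None of 4 markers of neutrophils was called (median −0.51), but 2 were lower with library totals alone (−0.79) and on log2(FPKM + 1). Called lower were 1 of 8 of B and plasma cells (Ighm, −1.29, 12.5% called, with 2 lower in those settings) and 2 of 3 of mast cells (median −2.27). The mast cell list summed to only 0.307 to 0.394 CPM in ACEi and 0.442 to 2.6 CPM in Veh, so it is poorly measured. Without A1, A4 and A9 no call was left in the lists of dendritic, B and plasma, and mast cells. Their medians were then −0.47, −0.22 and −0.37, the last from 1 marker tested, against −0.16, −0.44 and −2.27 with all mice. Itgax was also not called without A1, A4, A19, A20, A11, A13 or A23 alone, and Ighm without A11 or A13. Mertk was not called with library totals alone.

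Of 29 chemokines and receptors 12 were lower and 1 higher (44.8% called, against 40.1% of all genes, median −0.48), and 15 were lower with library totals alone (−0.76) and 18 of 28 on log2(FPKM + 1) (−0.70). Ccr1, a receptor of myeloid cells, was at 2.56, 2.61 and 3.0 CPM in ACEi and at 8.02 to 19.4 CPM (median 9.83) in Veh (−2.07, adjusted p = 1.4e-05), Ccl8 had −1.97 and Cxcl13, which draws B cells, −1.59. The monocyte attractant Ccl2 was at 37.8, 31.5 and 36.8 CPM in ACEi and at 25.2 to 57.9 CPM in Veh, and was not called (−0.13, adjusted p = 0.75), nor were Cxcl1, Cxcl10 and Cx3cl1 (−0.20, 0.24 and −0.01). Ccl28, a chemokine of epithelia, rose from 6.25 to 14.8 CPM in Veh to 71.6, 36.6 and 49.9 CPM in ACEi (2.45, adjusted p = 0.00028). Of 8 genes of MHC class II 6 were lower (median −0.53, and −0.80 with library totals alone, and 4 lower without A1, A4 and A9), for example H2-Ab1 (−0.63) and Cd74 (−0.57), the latter not called without A11 or A13. Of 19 interferon-stimulated genes 5 were lower (26.3% called, against 40.1% of all genes), such as Mx2 (−0.94), Oas2 (−0.87) and Ifit3 (−0.69), the last not called without A1, A4 and A9 or without A16, A11 or A23 alone. Of the 19, 9 were lower with library totals alone (52.8% of all genes called) and 13 on log2(FPKM + 1) (57.4%). Of 16 complement genes 7 were lower and 2 higher (median −0.60), and 12 were lower with library totals alone. The lower ones included the anaphylatoxin receptors C3ar1 (−1.13) and C5ar1 (−1.20), and the higher ones were Cfb (0.66) and Cd55 (0.72), which restrains complement on the cell surface.

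Of 12 podocyte markers of the glomerulus 3 were higher and 2 lower (41.7% called, against 40.1% of all genes, median 0.00). With library totals alone 1 was higher and 4 lower (median −0.27), and on log2(FPKM + 1) 1 and 5. Nphs1 (nephrin), a protein of the slit diaphragm, was at 33.0, 27.8 and 25.6 CPM in ACEi and at 16.4 to 21.8 CPM (median 19.2) in Veh. The groups did not overlap (0.58, adjusted p = 0.0042), and every ACEi mouse was above every WT mouse, which had 12.8 to 25.4 CPM. Nphs1 was not called with library totals alone or with FPKM. Clic5 rose by 0.73, and Plce1 was lower with overlapping groups (−0.43). Plce1 was not called with flow cell as a term, without the filter on low counts, or without A1, A4 and A9. It was also not called without A4, A9, A19, A13 or A23 alone. Of 4 mesangial markers 1 (25% called), the protease inhibitor Serpine2, was lower (−0.85, with 2 lower with library totals alone and on log2(FPKM + 1)). Of 12 endothelial markers 2 were higher (16.7% called), the VEGF receptor Kdr (0.62) and Ehd3 of glomerular endothelium (0.42). Neither was called without A1, A4 and A9, with library totals alone, or without A1, A11, A13 or A23 alone. Ehd3 was also not called without A19 or with flow cell as a term. With library totals alone and on log2(FPKM + 1) no endothelial marker was higher and 3 were lower. With upper quartile scaling 1 was lower and none higher. Of 5 lymphatic markers 1 (20% called), Pdpn, was lower (−1.24), and 2 were with library totals alone. Of 19 basement membrane genes 12 were lower and 3 higher (median −0.45, and 8 lower and 1 higher without A1, A4 and A9), while 13 were lower and none higher with library totals alone as with the upper quartile. They had the laminin Lamb3 (−1.94) and Col4a6 (−1.39) among the lower ones and Lama3 (0.36) and Lama1 (0.32) among the higher ones. Lamb3, Col4a6 and Lama1 were not called without A1, A4 and A9, Lamb3 not without A13 or A23 alone, and neither Lama3 nor Lama1 with library totals alone or without A11 or A13.

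The largest falls included markers of neighbouring tissue that were high in A1, A4 or A9. All 5 markers of the urothelium, which lines the renal pelvis, were lower in ACEi (median −4.69), and the summed CPM was 191 in A1, 117 in A4, 10.7 to 23.05 in the other Veh mice and 1.70 to 6.72 in ACEi. Without A1, A4 and A9 1 of the 5 was called, with a median of −2.73. Upk2, a uroplakin under the mean limit used next, had −4.86 without overlap, and was not called without A1, A4 and A9. Upk3a, another uroplakin, was at 1.18, 0.608 and 0 CPM in ACEi and at 2.28 to 46.0 CPM (median 4.97) in Veh. Of the 15 largest falls among the 2329 protein-coding genes called lower without overlap at a mean log2 CPM of 1 or more, Krt5, Upk3a, Hp, Sprr2a2, Gsdmc2, Ly6d, Gsdmc3 and Krt15 were not called without A1, A4 and A9. Of those, Gsdmc2, Gsdmc3, Sprr2a2, Ly6d and Krt15 were also not called without A13 or A23 alone. Sprr2a2 and Gsdmc3 lost their call with flow cell as a term and without A1, A4 or A11 alone, and Gsdmc2 without A1. Upk1b, Dio2, Krt17, Tnfrsf19, Plekhs1, Syt8 and Syndig1 were still called without A1, A4 and A9. Krt17, a keratin of basal and injured epithelium (GRCm38 chr11:100256217-100261029), was at 0.328, 0.394 and 0.0681 CPM in ACEi and at 3.06 to 9.62 CPM (median 5.86) in Veh (−4.54, SE 0.65, adjusted p = 3.2e-05). Syndig1 was at 0.722, 0.501 and 0.545 CPM in ACEi and at 4.63 to 6.16 CPM in Veh (−3.12, adjusted p = 1e-05), and Dio2, which activates thyroid hormone, at 0.102 to 2.36 CPM in ACEi and 7.06 to 55.4 CPM in Veh (−4.58). These 3 were selected for not overlapping, and in WT their highest values were 0.0409, 0.286 and 0.327 CPM.

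Of 6 adipocyte markers 5 were lower in ACEi (median −4.90), but with overlapping groups. The summed CPM was 419, 373 and 363 in A1, A4 and A9, 24.4, 1.98 and 0.705 in A16, A19 and A20, and 0.558, 8.52 and 5.52 in ACEi, and 73.6% of it was Cfd. The label on RNA extraction names adipose tissue for all 20 libraries, while the tissue label and the markers of the tubule are those of kidney. Without A1, A4 and A9 none of the 5 markers then tested was called (median −0.97), and on log2(FPKM + 1) 1 of 5 was. The brown adipocyte markers were at 31.4 and 73.0 summed CPM in A1 and A4 and at most 0.616 in the other 7 mice, with no call (median −7.03) other than with library totals alone, where both were lower. Haptoglobin Hp, which fat and liver also make, was at 2.10, 4.58 and 5.08 CPM in ACEi and at 6.66 to 189 CPM in Veh (−4.37, adjusted p = 0.0036). Of 4 mesothelial markers Msln (−2.87) and Upk3b (−2.50) were lower and Gpm6a higher (1.25), and without A1, A4 and A9 Msln was not called. Single markers of Schwann cells (1 of 4), skeletal muscle (1 of 2) and the adrenal gland (1 of 2) were lower, none of them called without A1, A4 and A9. With library totals alone 2 of the 4 Schwann cell markers and both adrenal markers were lower, and the adrenal genes Cyp11b2, Th, Dbh and Pnmt were at 3 counts or fewer in all 9 mice. The part of such tissue in the lower genes was not tested beyond leaving these mice out.

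**Figure D5:**
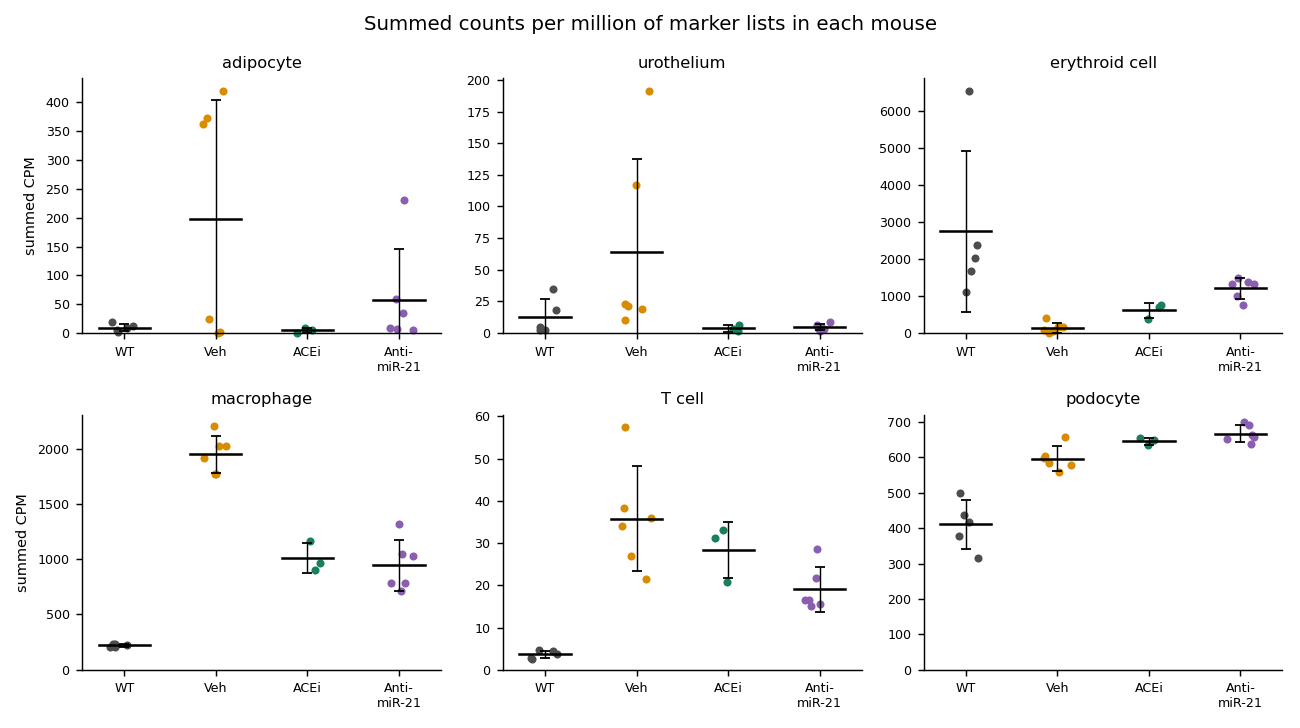
Summed CPM of the markers of 6 cell types in every mouse (points) of WT, Veh, ACEi and Anti-miR-21, with the mean (bar) and SD (whiskers) and the y axis from 0. Adipocyte sums are above 300 in 3 Veh mice and urothelial sums above 100 in 2, macrophage sums separate ACEi from Veh, and T cell sums overlap.

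Genes of red cells were higher. Of 6 erythroid markers 5 were called (median 2.04). The sum was 374, 767 and 698 CPM in ACEi, 12.7 to 399.5 CPM (median 109) in Veh and 1099 to 6561 CPM in WT, so A16 overlapped ACEi. Hbb-bt, a globin chain, was at 52.0, 96.9 and 58.1 CPM in ACEi and at 1.51 to 43.1 CPM in Veh (2.19, adjusted p = 0.0083), and Alas2, the haem enzyme of red cell precursors, had 2.04. Hbb-bt was not called without A13, and Alas2 not without A1, A4 and A9. Without A1, A4 and A9 3 of the 6 were called. Reads of the globin genes may be split between near-identical copies.

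Cholesterol synthesis went both ways. Of 20 genes 8 were higher and 5 lower (median 0.20, and −0.08 with library totals alone), and 6 and 3 were without A1, A4 and A9. Library totals alone gave 6 higher and 8 lower, and log2(FPKM + 1) gave 5 and 7 of 18. Idi1, of the isoprenoid step, was at 96.2, 107 and 94.1 CPM in ACEi and at 24.5 to 51.1 CPM (median 32.6) in Veh (1.54, adjusted p = 1.7e-05), and Cyp51 and Mvd rose by 1.32 and 1.07. Fdps and Fdft1, the steps between Idi1 and squalene, were lower instead. Fdps was at 23.7, 25.1 and 24.9 CPM in ACEi and at 32.6 to 50.3 CPM (median 42.9) in Veh (−0.79, SE 0.16, adjusted p = 0.00065), and Fdft1 at 21.4, 24.5 and 22.4 CPM in ACEi and at 28.7 to 40.9 CPM (median 34.7) in Veh (−0.61, adjusted p = 0.00053). For Fdps and Fdft1 every ACEi mouse was under every Veh and every WT mouse in CPM scaled with TMM. The TMM factors were 0.9757 to 1.046 in ACEi and 0.7705 to 0.8496 in WT. Whether these genes lie below WT with other scalings was not tested.

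Few genes went beyond both Veh and WT. Among protein-coding genes whose mean log2 CPM was 1 or more, 31 were called higher than in both groups with every ACEi mouse above all of their mice, and 32 lower. The place of these genes against WT rests on TMM scaling and was not examined with other scalings. Beside Ren1, Akr1b7 and Nphs1, the higher ones with the largest differences included Bcl6, a transcriptional repressor, at 106, 83.5 and 68.5 CPM against 22.1 to 58.7 CPM in Veh and 12.9 to 51.0 CPM in WT. Its log2 fold change against Veh was 1.22 (adjusted p = 0.03). It was not called with flow cell as a term, with FPKM, with library totals alone or without A1, A4 and A9. Nor was it called without A1, A9, A11 or A13 alone. The growth factor carrier Fgfbp1 had 0.67, the sorting nexin Snx16 0.65 and the lectin Clec1a 0.65. Nphs1, Fgfbp1 and Clec1a averaged 32.6, 7.83 and 3.07 CPM in Anti-miR-21, against 28.8, 6.19 and 3.22 CPM in ACEi. Bcl6 and Snx16 averaged 57.8 and 9.78 CPM there, against 85.9 and 13.6 CPM in ACEi. Clec1a was not called with library totals alone, with FPKM, without A1, A4 and A9, or without A13 or A23 alone. The lower ones included Eva1c (−1.50), at 1.11, 1.07 and 0.988 CPM in ACEi, 2.61 to 3.32 CPM in Veh and 1.39 to 1.89 CPM in WT. Rapgefl1 (−0.91), Mboat2 (−0.76), AI661453 (−0.72) and Adssl1 (−0.55) joined Fdps and Fdft1. Rapgefl1, Mboat2 and AI661453 averaged 1.85, 5.14 and 35.4 CPM in Anti-miR-21, against 2.0, 4.56 and 33.1 CPM in ACEi. Eva1c, Adssl1, Fdps and Fdft1 averaged 1.57, 5.55, 37.5 and 30.0 CPM there, against 1.06, 3.93, 24.6 and 22.8 CPM in ACEi. Rapgefl1 and Adssl1 were not called without A1, A4 and A9, and Rapgefl1 not without A13 or A23 alone.

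Of 22 cell cycle genes 3 were lower (13.6% called, against 40.1% of all genes, median −0.34), Mcm3, Mcm7 and Aurkb, at −0.44, −0.34 and −0.59. This count depended on the scaling, with 8 lower with upper quartile scaling, 16 with library totals alone (median −0.61, against 52.8% of all genes called) and 17 on log2(FPKM + 1) (median −0.44, against 57.4%). Of 12 genes of the p53 response and arrest 5 were lower and 1 higher (median −0.32), with Cdkn1a, the p21 inhibitor, at 30.5, 29.3 and 38.3 CPM in ACEi and 41.9 to 84.6 CPM in Veh (−1.02, adjusted p = 0.023) and Ccng1 higher (0.40). Library totals alone gave 8 lower and none higher. Of 15 genes of the unfolded protein and integrated stress response 2 were higher, Herpud1 (0.79) and Dnajb9 (0.39), and 1 lower, Atf5 (−0.80), with 20% called and a median of 0.01. With library totals alone (median −0.27) and on log2(FPKM + 1) 1 was higher and 4 lower. Of 12 AP-1 and immediate early genes 4 were lower (33.3% called, median −0.48, and 6 with library totals alone, −0.76), among them Junb (−0.88) and Egr2 (−0.82). Without A1, A4 and A9, where 26.6% of all genes were called, no cell cycle gene and 1 AP-1 gene was called. In the p53 list 3 genes were then lower and 1 higher, and in the stress response 1 was higher and 1 lower. The medians of these 4 lists were then −0.33, −0.47, −0.21 and −0.11, in the same order. Of 11 hypoxia genes 6 were higher and 2 lower (median 0.35), such as Car9 (1.39), Ndrg1 (0.84) and the vessel growth factor Vegfa (0.63). With library totals alone and on log2(FPKM + 1) 4 were higher and 5 lower, with medians of 0.08 and 0.07. Of 14 endothelin and vasoactive genes 5 were lower and 1 higher (42.9% called, near the 40.1% of all genes, median −0.37, and 2 lower without A1, A4 and A9), while 10 were lower with library totals alone and 11 on log2(FPKM + 1). Edn1, the vasoconstrictor endothelin-1, was at 16.1, 9.02 and 12.1 CPM in ACEi and at 11.4 to 34.3 CPM (median 21.1) in Veh, with overlap (−0.80, adjusted p = 0.0091), and the cyclooxygenase Ptgs1 had −0.65. Cdkn1a, Dnajb9, Junb, Edn1 and Ptgs1 were not called without A1, A4 and A9, and Ccng1 and Dnajb9 not with library totals alone. Without A13 Cdkn1a, Dnajb9, Egr2, Edn1, Mcm3 and Aurkb were not called, without A11 Cdkn1a, Egr2, Mcm3 and Aurkb, and without A23 Mcm7, Junb, Egr2, Mcm3 and Aurkb. Mcm3 and Aurkb also lost their call without 1 of several Veh mice, and Egr2 without A19. With flow cell as a term Mcm3 was not called.

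Of 77 genes of the cytosolic ribosome 52 were lower and 1, Rpl3l, higher (median −0.38), and without A1, A4 and A9 4 were lower (median −0.17). In contrast 59 were lower with upper quartile scaling, 72 with library totals alone and 72 of 73 on log2(FPKM + 1), with a median of −0.66 in both of the last. The summed CPM was 26000 in A1, 20160 in A4, 23760 in A9 and 16190 to 19910 in the other Veh mice, and 14650 to 17810 in ACEi, so the groups overlapped. Rps9 was at 401, 431 and 432 CPM in ACEi and at 485 to 800.5 CPM in Veh (−0.58, adjusted p = 0.00075), and Rpl3l was not called without A13.

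Promoters of genes that moved together were read for short motifs, in the 250 bases before the start given by RefSeq (GRCm38.p6), on both strands. Of 11912 tested protein-coding genes with a promoter in that table, 5.66% held GTTAAT, the core of the site of HNF1, a transcription factor of the proximal tubule. Among genes of mean log2 CPM 1 or more that were called higher by a log2 fold change of at least 1 it was 12.5% (62 of 495), and among those called lower by as much 4.01% (12 of 299). TGANTCA, the AP-1 site, was held by 6.04% of all, by 7.68% of the higher and by 12.7% (38 of 299) of the lower genes. The TATA box TATAAA was held by 8.78% of all, 17.2% of the higher and 13.7% of the lower genes. The CCAAT box CCAAT was held by 39.7% of all, 44.2% of the higher and 33.4% of the lower genes. GTTAAT was held by 4 of 27 solute transporters, 3 of 5 genes of gluconeogenesis and fructose use and 2 of 30 of amino acid catabolism (6.67%), the latter near the share of all genes. The AP-1 site was held by 4 of 8 matrix proteases and inhibitors. In cholesterol synthesis CCAAT was held by all 13 genes, GTTAAT by 1, the AP-1 site by 2 and the TATA box by none. No match of these 4 motifs can lie inside a match of another. Shown next are such windows of 4 genes described above, all on the plus strand, with the match in capitals. They lie at chr19:8617915-8617970 (Slc22a6), chr13:55399562-55399617 (Slc34a1, which has 2 matches), chr2:173152856-173152911 (Pck1, the reverse match) and chr9:7692002-7692058 (Mmp7, AP-1). A match is no evidence of binding.
Slc22a6: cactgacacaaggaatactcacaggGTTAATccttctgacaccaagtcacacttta
Slc34a1: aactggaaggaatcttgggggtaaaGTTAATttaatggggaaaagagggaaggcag
Pck1: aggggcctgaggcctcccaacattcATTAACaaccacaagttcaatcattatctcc
Mmp7: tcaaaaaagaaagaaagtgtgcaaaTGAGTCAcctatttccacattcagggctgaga

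The test against the Anti-miR-21 mice compared the treatments directly. It called 103 genes (0.584%), 39 higher (0.221%) and 64 lower (0.363%) in ACEi. Of the 903 list genes tested 11 were among them. Ren1 and Akr1b7 were higher in ACEi, by log2 fold changes of 2.67 (adjusted p = 1.1e-07) and 1.46 (adjusted p = 0.00079), with Ren1 at 62.1 to 93.8 CPM and Akr1b7 at 3.33 to 6.37 CPM in Anti-miR-21. Ace, Agtr1a and Klk1 were not called, at 196, 53 and 821 CPM on average in Anti-miR-21 against 197, 54.6 and 788 CPM in ACEi. Of the 20 matricellular, elastic and crosslinking genes 2 were called, both higher in ACEi, with elastin Eln at 51.4, 51.8 and 64.7 CPM in ACEi and 19.1 to 28.3 CPM in Anti-miR-21 (1.27, adjusted p = 7.7e-05) and Mfap4 at 17, 19.6 and 27.7 CPM against 4.65 to 9.25 CPM (1.78, adjusted p = 0.00012). The growth factor Ptn (1.14), the macrophage receptor Mrc1 (0.88), the protease Mmp9 (0.94), the chemokine Cx3cl1 (0.61) and the replication genes Rrm2 (0.76) and Mcm2 (0.43) were also higher in ACEi, and the protease urokinase Plau was lower (−0.58). No gene of the proximal tubule, transport or energy lists was called between the treatments. With 3 and 6 mice a missing call does not show equal levels. The median log2 fold change against Anti-miR-21 was 0.69 for fibrillar collagens, 0.51 for matricellular genes, 0.44 for tubule injury and 0.62 for the cell cycle. It was −0.39 for the straight and −0.05 for the convoluted proximal tubule, −0.33 for gluconeogenesis and −0.22 for nuclear oxidative phosphorylation. These list differences were not tested.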

How the data were processed

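Whole-kidney total RNA was sequenced in 100-base read pairs, and the authors aligned reads to GRCm38 with OSA4 in OmicSoft Studio and summarised genes of Ensembl R83. The authors deposited estimated counts for 47069 genes in 20 mice, of which 29.1% of the positive values were not whole, so they were rounded here. Whether counting used strand is not given in the sources used here, so genes with overlapping exons are uncertain. The authors also deposited FPKM (fragments per length and library size), used here only as an alternative on log2(FPKM + 1) and log2(FPKM + 0.1) with limma 3.58.1, and 3 FPKM columns were not used here.

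Counts of all 20 mice were fitted in edgeR 4.0.16 (R 4.3.3), with TMM scaling, filterByExpr (minimum count 10, minimum total 15) and 1 coefficient per group, because 3 mice alone estimate the spread poorly. The quasi-likelihood test was adjusted by Benjamini-Hochberg over all 17622 genes, with 0.05 as the threshold, and SE is the log2 fold change over the root of its F value. All p-values measure the spread between mice, and flow cell was tried as a term. DESeq2 1.42.0, other scalings, other filters and leaving out each mouse were alternatives. The scripts were tested on simulated data. Marker and function lists are described by counts and medians, with no set test. Named genes are the 15 largest rises and falls without overlap and the 8 in each direction beyond both Veh and WT, in each case among called protein-coding genes with a mean log2 CPM of at least 1 over the 9 mice, the renin, kallikrein, juxtaglomerular and macula densa genes, and in other lists up to 4 called members with the largest change, up to 2 against the list's sign and members that were not called. Members and lists were chosen with earlier results of these data known. Upk2, Cd68 in the plots and the list genes called against Anti-miR-21 were chosen after their values were seen, as were Cd163, Spp1, Cidea and mt-Co1 where a plot names them. Promoter sequences are from RefSeq. Some genes that the rule names are not reported here.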

Additional observations from a re-analysis of the deposited data

Results flagged for a closer look

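In 3 of 128 quantities examined in the Veh mice 1 mouse lay far from the other 5, where chance gives about 5% of them. The mouse was A19 each time. Snx16, a sorting nexin, was at 11.1 CPM in A19 and at 7.53 to 8.46 CPM in the other Veh mice. Ptgs2, a prostaglandin enzyme, was at 2.67 CPM in A19 and at 1.55 to 1.83 CPM in the others. The summed CPM of the 15 genes of the unfolded protein and integrated stress response was 2700 in A19 and 1480 to 1830 in the others.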

How the results depend on the processing

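Of the 7074 genes called, 3704 were higher and 3370 lower. With library totals alone 1907 were higher and 7389 lower, with limma on log2(FPKM + 1) 1766 and 7445, and on log2(FPKM + 0.1) 1773 and 7084. Without Veh mice A1, A4 and A9, an alternative chosen after seeing the data, 4606 were called, 1567 of them lower. Flow cell A alone gave 3057 (2212 higher, 845 lower) and flow cell B alone 1316 (909 and 407), with fewer mice. Leaving out each mouse in turn gave 4978 to 7335 called, 2987 to 4195 higher and 1991 to 3140 lower, the fewest without A13. The lists with most members called higher numbered 7 in flow cell B and 14 to 18 without 1 mouse. Those with most members lower numbered 25 and 24 with FPKM, 0 in flow cell A, 1 in flow cell B, 4 without A1, A4 and A9, and 6 to 14 without 1 mouse. The median of the distal convoluted tubule reversed to −0.02 on log2(FPKM + 0.1). That of glycolysis reversed to −0.13 with library totals and to −0.16 with both FPKM fits, and that of cholesterol synthesis to −0.08 and to −0.03. With library totals the kallikrein-kinin, principal cell, sodium handling and stress response medians reversed to −0.12, −0.12, −0.06 and −0.27. Within flow cell A those of T cells, dendritic cells and cytotoxic lymphocytes reversed to 0.22, 0.50 and 0.80. The mesangial median went from −0.10 to 0.04 without A1, A4 and A9. Lnpep, not called, reversed to −0.20 and −0.34 with FPKM. The cause was not tested. DESeq2 called 7525, RLE scaling 7083, upper quartile scaling 7380, flow cell as a term 6577, no filter 6443, at least 10 counts in every mouse 6526 and the 9 mice alone 7099. Of 231 named genes called none reversed, and 58 lost their call without A1, A4 and A9, 83 in flow cell A and 138 in flow cell B. With flow cell as a term 12 of the 231 lost their call, and with library totals alone 18. Of 26 named genes not called, 3 were called with library totals alone and 7 on log2(FPKM + 1), 1 of these the reversed Lnpep. No paired analysis was possible because each replicate name belongs to 1 mouse. T cell markers summed to 57.5 CPM at most, so small changes of that list are poorly measured.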
